A study of Mus musculus with 5 samples.

Results

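Pdgfra encodes a receptor tyrosine kinase for platelet-derived growth factors, and the chromatin around it was described from 5 lists of chromatin immunoprecipitation sequencing (ChIP-seq) peaks made from mouse gliomas. Every listed peak that overlapped the window chr5:75450000-75700000 on the mouse build mm9 was taken, which gave 36 peaks of 258727 in the 5 lists. The window holds Pdgfra at about 75.548 to 75.594 Mb on the plus strand. The gene is about 46 kb long, and its ends are known here to the nearest kb, so distances from them are given in whole kb. Exons and introns were not used here.

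The tumours were brain gliomas induced by PDGFB, taken 25 days after injection of virus into mice of the mixed background C57Bl/6;129Sv;CD-1. Olig2cKO tumours carried floxed Olig2 (Olig2f/f) and control tumours did not, and both carried floxed P53 (P53f/f). The driver of recombination and any pooling of tumours are not given in the sources used here. The libraries were acetylated lysine 27 of histone H3 (H3K27ac) in Olig2cKO and in control tumours, trimethylated lysine 4 of histone H3 (H3K4me3) in Olig2cKO and in control tumours, and Olig2 in control tumours. Each group had 1 library, so genotypes are compared as single libraries, without replicates and without a test. In whole tumours, a mark in fewer cells and a weaker mark per cell cannot be told apart. Whether Olig2 was lost in the Olig2cKO tumours could not be read from these lists, and the tumour cell type was not checked against marker genes, since no mm9 gene annotation was used.

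PDGFRA is switched on when a PDGF dimer brings receptor chains together, and it signals through the RAS and PI3K pathways. In the brain it is the classical surface marker of oligodendrocyte precursor cells, which depend on PDGF-A to divide, and PDGF-B also binds it. Olig2 is a basic helix-loop-helix transcription factor of the same lineage that binds E-boxes, the short motifs CANNTG. H3K27ac lies on active promoters and enhancers, and H3K4me3 lies mainly on promoters. In gene order, taken from the RefSeq table of another build (GRCm38.p6) without its positions, the nearest protein-coding genes are Gsx2, a homeobox gene of the embryonic forebrain, before Pdgfra, and Kit, a receptor tyrosine kinase of the same family, after it. The lncRNA Gm19583 lies between Gsx2 and Pdgfra. No peak is assigned to any of these genes.

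An Olig2 peak lay at the start of Pdgfra, so the promoter sequence is shown with its E-boxes. The 250 bases before the start of transcription that RefSeq annotates are at chr5:75152001-75152250 on GRCm38.p6, plus strand. The peaks are on another build, and positions were not converted. The motif CANNTG is in capitals.
Pdgfra promoter: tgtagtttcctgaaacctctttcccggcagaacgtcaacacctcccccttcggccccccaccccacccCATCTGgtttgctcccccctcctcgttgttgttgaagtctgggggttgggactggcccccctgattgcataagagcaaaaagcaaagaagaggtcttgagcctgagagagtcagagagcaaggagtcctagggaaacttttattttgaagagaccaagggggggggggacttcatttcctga
These bases held 1 E-box, CATCTG, which begins 182 bases before the start and reads CAGATG on the other strand. CAGCTG, another E-box, had 0 matches. Of 32841 promoter stretches of the same length in the table, searched on both strands, 66.2% held CANNTG, 14.4% held CAGATG and 13% held CAGCTG, where the last 2 are counted within the first as well. Of 14 genes of PDGF ligands, related receptors and their signalling listed for comparison, 11 had a promoter in the table. CANNTG was found in 3 of them, Flt3, Kdr and Met, and CAGATG in Flt3 and Kdr. A match of letters is a description and does not show a bound site.

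**Figure D1:**
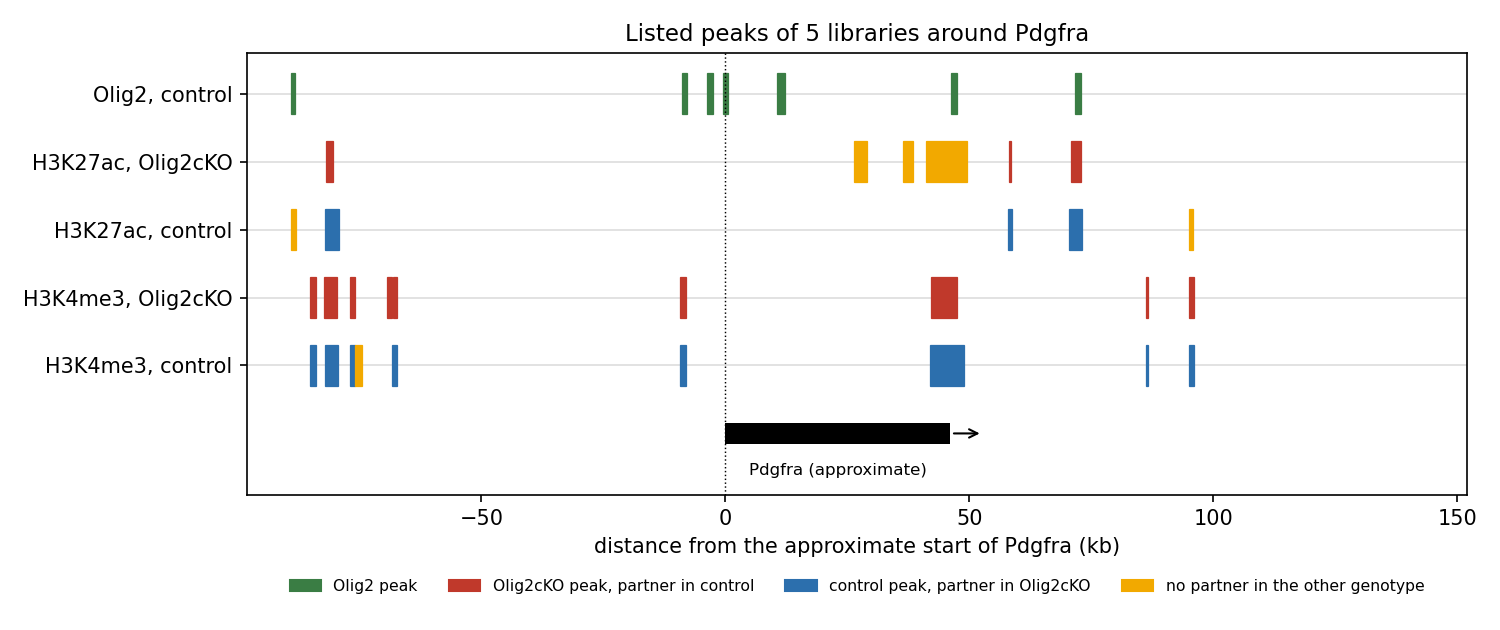
Position of every listed peak, to scale, as distance in kb from the approximate start of Pdgfra (dotted line). Rows are the libraries, the black bar is the gene with its direction of transcription, and peaks without a partner in the other genotype are in yellow. The start of the gene carries an Olig2 peak and no histone peak, and 3 Olig2cKO H3K27ac peaks without a partner lie over its body and end. The pair of neighbouring Olig2cKO H3K4me3 peaks at -69 and -68 kb is drawn too close to be told apart.

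The 36 peaks made up 17 separate sites. Olig2 had 7 peaks in the window. H3K27ac had 6 peaks in Olig2cKO and 5 in control tumours, and H3K4me3 had 9 peaks in each genotype. One site, 81 kb before the gene, carried both marks in both genotypes, and 0 sites carried peaks of all 5 lists. The peaks covered 17364 bp in the Olig2cKO H3K27ac list and 8426 bp in the control H3K27ac list. For H3K4me3 they covered 14968 bp in Olig2cKO and 16683 bp in control tumours, and Olig2 peaks covered 8214 bp. The larger H3K27ac cover in Olig2cKO tumours lay in the 3 peaks over the body and end of Pdgfra. It turned round with the upper 50% of each list by score, to 3641 bp in Olig2cKO and 6670 bp in control tumours. Sequencing depth is unknown for all lists, and a place without a listed peak may still carry the mark below the caller's threshold.

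The start of Pdgfra was occupied by Olig2 in control tumours. The Olig2 peak lay at chr5:75547621-75548616, was 996 bp wide and had a score of 73.69. Scores are those of the authors' peak caller, begin at about 50 in every list and have no stated scaling between libraries, so each is read by its place in its own list. Of the 39201 Olig2 peaks, 34.3% scored lower than this one. It was the second weakest of the 7. No histone peak of either mark or genotype was listed there. The nearest H3K4me3 peaks lay about 8 kb before the start in both genotypes. The nearest H3K27ac peaks lay about 26 kb from it in Olig2cKO and about 58 kb in control tumours.

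Olig2 peaks stood close together around the start. Besides the peak on it, they lay 8 kb before it (chr5:75539155-75540172, score 107.73), 3 kb before it (chr5:75544216-75545536, score 143.04) and 11 kb after it (chr5:75558631-75560170, score 214.08). The peaks 3 kb before and 11 kb after the start also had no histone peak in any of the 4 lists. In all, 3 of the 7 Olig2 peaks were unmarked, meaning without a listed histone peak, against 17.1% of all Olig2 peaks. In a window of 500 kb, 4 of 15 were. With the upper 50% of each list by score 3 were again unmarked, but not the same peaks: the one at the start was no longer in the list, and the one at the end of the gene lost the marks on it. The unmarked peak in the gene body was no weak one, since 86.3% of the Olig2 list scored lower. Of 10563 pieces of 250 kb that tile chromosomes 1 to 19 and X, 5.16% held 3 or more unmarked Olig2 peaks. That share depends on the number of Olig2 peaks too, since the median piece held 3 of any kind and the window 7. Pieces with as many Olig2 peaks were not compared separately.

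The stretch without control H3K27ac around Pdgfra was long. No control H3K27ac peak was listed from 75468789 to 75605880, a stretch of 137.1 kb that held 5 of the 7 Olig2 peaks and 3 Olig2cKO H3K27ac peaks. Of 56530 stretches between control H3K27ac peaks, 94.7% were shorter. Of the 4407 stretches of 100 kb or more, 1.11% held 5 or more Olig2 peaks, with a median of 1, and 36.7% held 3 or more Olig2cKO H3K27ac peaks, with a median of 2. So many Olig2 peaks were uncommon among stretches of 100 kb or more, while as many Olig2cKO H3K27ac peaks were not. Of the whole Olig2 list, 68.9% lay on control H3K27ac, and the stretches were not matched for length or for nearby Olig2 peaks. The corresponding stretch without Olig2cKO H3K27ac ran from 75467626 to 75574282, or 106.7 kb, and held 4 Olig2 peaks. For H3K4me3 the stretch over the gene was 50.1 kb in Olig2cKO and 50.0 kb in control tumours, and 75.7% and 73.8% of the stretches in their lists were shorter.

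Of the other Olig2 peaks, the one 72 kb after the start, 26 kb past the end of the gene, was the strongest (chr5:75619638-75620904). It scored 452.92 and ranked 831 of 39201. H3K27ac lay there in both genotypes and H3K4me3 in neither. The H3K27ac peak scored 779.09 and was 2121 bp wide in Olig2cKO tumours, against a score of 867.01 and 2748 bp in control tumours. In their own lists 92.9% of Olig2cKO and 92.6% of control H3K27ac peaks scored lower. Among distal H3K27ac peaks, those without H3K4me3 of the same genotype, it ranked 395 of 34878 in Olig2cKO and 347 of 28164 in control tumours. It was thus among the strongest distal acetylated sites of both lists, and the Olig2cKO peak lay wholly inside the control peak. Olig2 peaks with this pattern, H3K27ac in both genotypes and H3K4me3 in neither, made up 14.0% of the Olig2 list, and 1 of 7 here.

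The Olig2 peak 8 kb before the start carried H3K4me3 in both genotypes and H3K27ac in neither, a pattern of 4.68% of all Olig2 peaks. Its H3K4me3 peaks were the strongest of that mark in the window. The Olig2cKO peak (chr5:75538769-75540013) scored 937.86 and the control peak (chr5:75538750-75539980) scored 912.62. In their lists 75.9% of Olig2cKO and 72.7% of control H3K4me3 peaks scored lower. The edges of the pair differed by 19 and 33 bp, and the overlap was 95.9% of their joint length, where the median of all 35250 H3K4me3 pairs with 1 partner each was 83.3%. This site kept its H3K4me3 peak at nearly the same place in both libraries.

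The remaining Olig2 peaks each carried H3K27ac in a single genotype. The weakest, 89 kb before the start (chr5:75458957-75459832, score 55.34), lay on H3K27ac in control tumours alone. The one just past the end of the gene (chr5:75594285-75595480, score 167.55) lay on H3K4me3 in both genotypes and on H3K27ac in Olig2cKO tumours alone. Counted over the 7 peaks, H3K27ac was present at 2 in Olig2cKO and at 2 in control tumours, against 70.2% and 68.9% of the Olig2 list. H3K4me3 was present at 2 in each genotype, against 58.1% in Olig2cKO and 55.6% in control tumours. A smaller share of these 7 Olig2 peaks carried each listed mark than in the list as a whole. The wider window of 500 kb had 15 Olig2 peaks, of which 7 lay on Olig2cKO and 9 on control H3K27ac. On H3K4me3 lay 5 (Olig2cKO) and 6 (control) of those 15. Seen from the marks, Olig2 lay on 2 of 6 Olig2cKO and 2 of 5 control H3K27ac peaks, against 42.5% and 49.5% of those lists, and on 2 of 9 H3K4me3 peaks in each genotype, against 50.3% in Olig2cKO and 55.7% in control tumours. Olig2 was mapped in control tumours alone, and the part of that in these counts was not tested. The exact (Clopper-Pearson) 95% intervals of 19 class shares of whole peak lists reached at most 0.494 percentage points from the share. They cover counting error only. Shares of 250 kb pieces, stretches, score deciles and parts of a list are not among the 19.

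**Figure D2:**
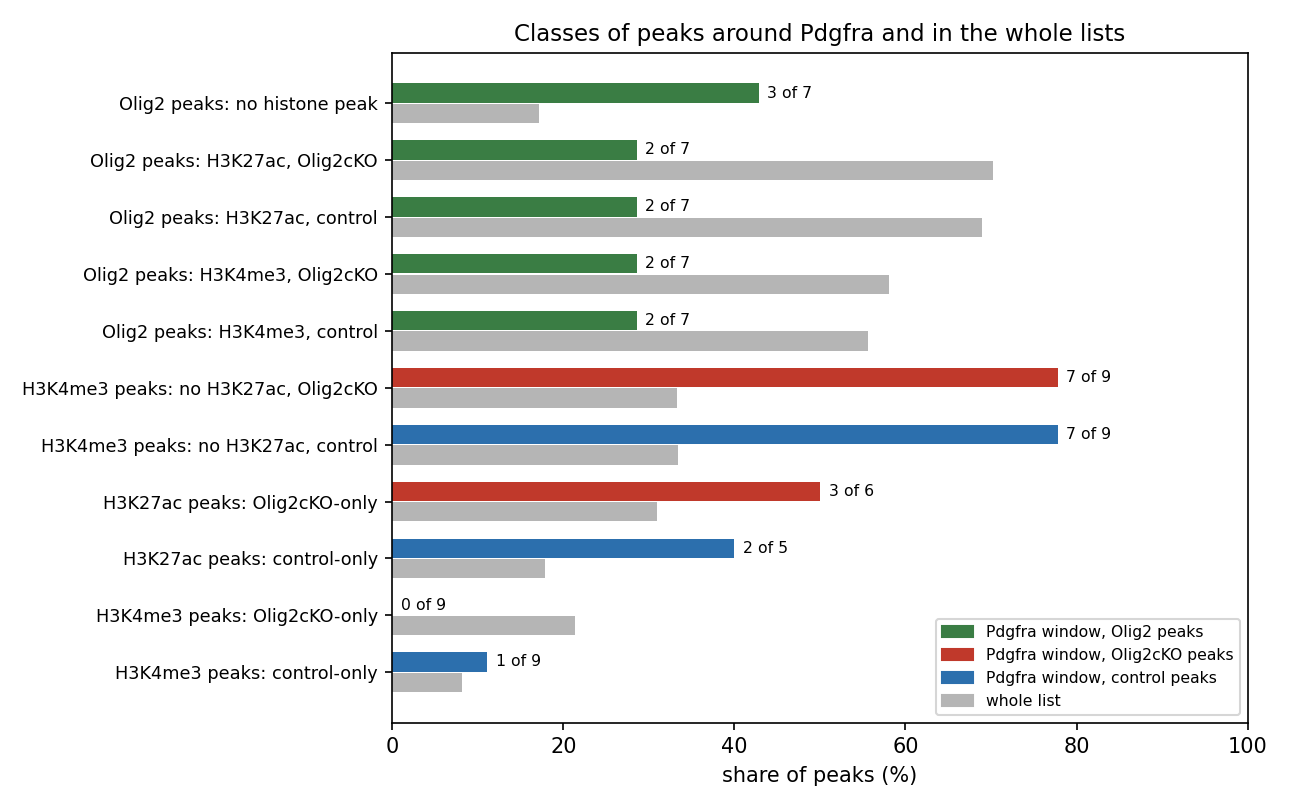
Share of peaks in percent for each class, in the Pdgfra window (coloured bars, with the number of peaks) and in the whole list (grey bars). Among 7 Olig2 peaks, 3 had no histone peak, against 17.1% of the list, and 7 of 9 H3K4me3 peaks in each genotype had no H3K27ac, against 33.3% in Olig2cKO and 33.4% in control tumours.

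H3K27ac over the body and end of Pdgfra was listed in Olig2cKO tumours and not in control tumours. The 3 peaks lay 28 kb after the start (chr5:75574283-75577040, score 122.8), 37 kb after it (chr5:75584456-75586510, score 56.04) and across the end of the gene (chr5:75589135-75597513, score 84.08). They made up 3 of the 6 Olig2cKO peaks in the window, against 30.9% of the Olig2cKO list without a control partner. All 3 were weak, with 37.8%, 5.39% and 22.6% of the list below them. Peaks without a partner are common at such scores, at 42.4%, 68.9% and 51.9% of the Olig2cKO peaks in the same score decile. With the upper 50% of each list by score, 0 of these 3 peaks were left, and with lists of equal length 2 of the 4 Olig2cKO peaks in the window had no partner. Whether a deeper control library would list them was not tested.

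The peak across the end of the gene was 8379 bp wide, and 99.9% of the Olig2cKO H3K27ac peaks were narrower. H3K4me3 covered the same place in both genotypes, with peaks of 5500 bp in Olig2cKO (chr5:75590075-75595574, score 144.02) and 6961 bp in control tumours (chr5:75589934-75596894, score 126.58). Those were wider than 98.7% and 99.8% of their lists. All 3 peaks were wide and low. For H3K4me3 peaks of 5 kb or more the median score was 709.4 in Olig2cKO and 798.0 in control tumours, far above the 144.02 and 126.58 here. Of 95 control H3K4me3 peaks of 5 kb or more with an Olig2cKO partner and no control H3K27ac, 29.5% carried Olig2cKO H3K27ac, as the one at the end of Pdgfra did, and of 13462 such peaks of any width 24.9% did. The widest peaks of the histone lists measured 8977 bp (Olig2cKO H3K27ac), 9063 bp (control H3K27ac), 9285 bp (Olig2cKO H3K4me3) and 9145 bp (control H3K4me3), so a mark spread over a longer stretch is not listed as 1 peak. Median scores also fell among the wider classes, from 516.8 at 3 kb to 86.7 at 8 kb and above for control H3K27ac. For control H3K4me3 they fell from 1678 to 134.5 between the same classes. Whether that bears on the missing histone peaks at the start of Pdgfra was not tested. Nor was it tested for the other unmarked Olig2 peaks or for the long stretch without control H3K27ac.

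**Figure D3:**
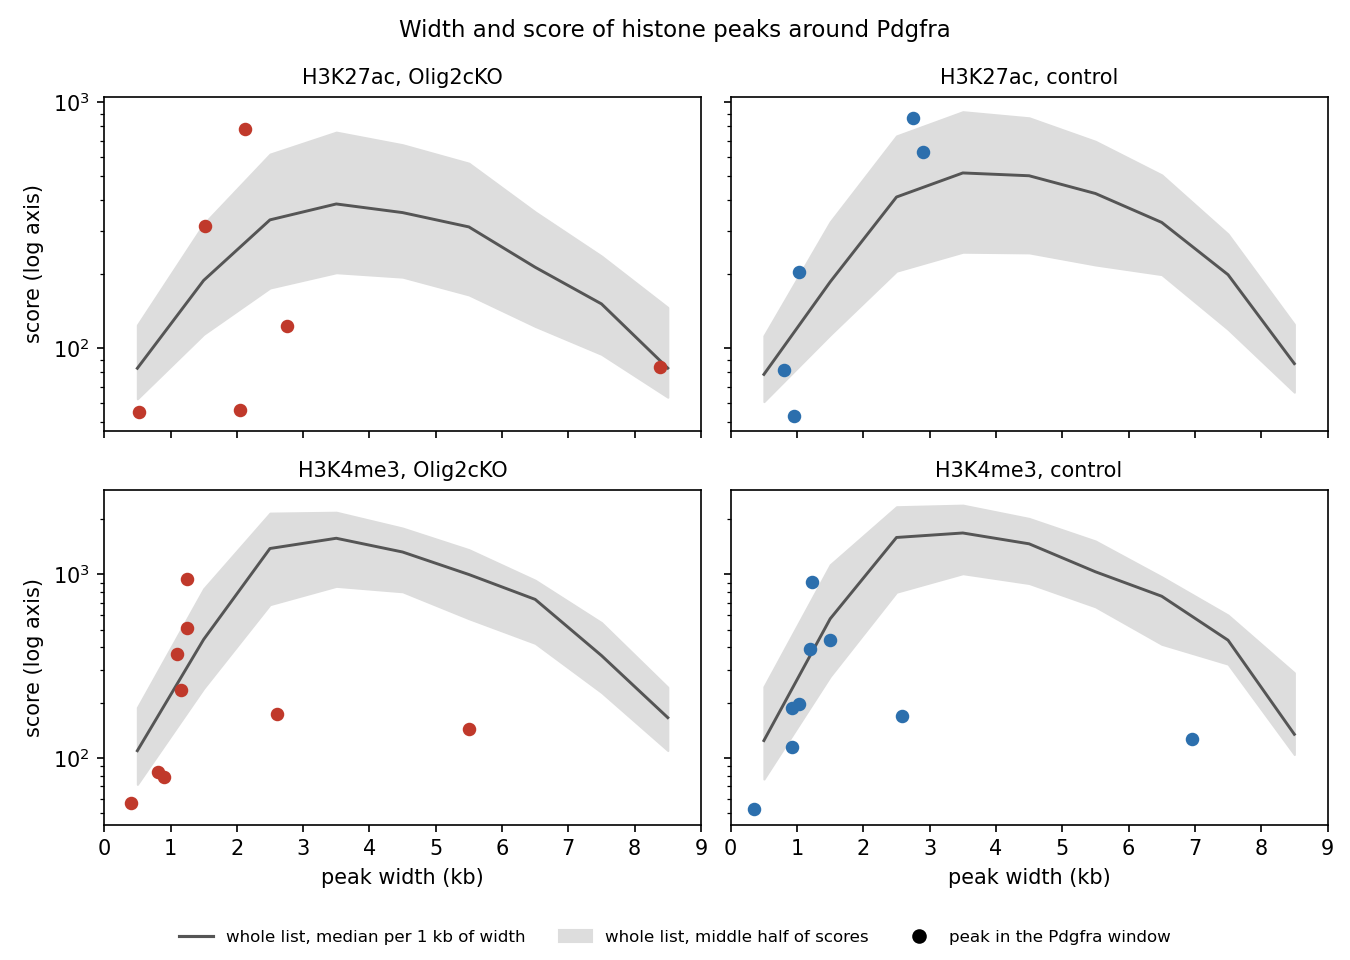
Score (log axis) against width in kb for the histone peaks around Pdgfra (dots), over the median of each list per kb of width (line) and its middle 50% (grey band). The wide H3K4me3 peaks at the end of the gene, at 144.02 in Olig2cKO and 126.58 in control tumours, lie below the bands, while the wide Olig2cKO H3K27ac peak, at 84.08, lies inside its band.

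Control-only H3K27ac was listed at 2 of the 5 control peaks, against 17.9% of the control list. One lay on the weakest Olig2 peak, 88 kb before the start (chr5:75458994-75460021) and scored 204.54, with 55.1% of the list below it. In its score decile 12.7% of peaks had no partner. The other lay 95 kb after the start on H3K4me3 present in both genotypes (chr5:75642987-75643794) and scored 81.48, with 20.4% of the list below it and 29.8% of its score decile without a partner. With lists of equal length 3 of the 5 control peaks had no partner, and with the upper 50% of each list 1 did. Of the 5 H3K27ac peaks listed in a single genotype, the one 88 kb before the start was the only one above the middle of its list.

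The 3 H3K27ac pairs were narrower in Olig2cKO tumours, and in each the Olig2cKO peak lay inside the control peak. The pair 81 kb before the start measured 1520 bp in Olig2cKO and 2894 bp in control tumours, with scores of 314.81 and 630.21 and 72.4% and 86.4% of the lists below. The weak pair 58 kb after the start measured 531 bp in Olig2cKO and 948 bp in control tumours, with scores of 55.37 and 53.16. The strong pair at the Olig2 site 72 kb after the start is given above. Over all 43120 such H3K27ac pairs 57.0% were wider in Olig2cKO tumours, so the 3 pairs ran against the more common direction. Places in lists of different length and widths from libraries of unknown depth do not show a change in the mark.

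Distal H3K27ac made up 4 of the 6 Olig2cKO peaks and 3 of the 5 control peaks, against 50.3% and 49.8% of those lists. The distal peaks did not form a domain in either genotype. With neighbouring distal peaks joined across the gap commonly used to stitch enhancers and 3 peaks required, the window held 0 domains, and its longest group had 2 peaks in each genotype. The wide Olig2cKO peak across the end of the gene (chr5:75589135-75597513) lay on H3K4me3, so it was not counted as distal. It lay between the distal Olig2cKO peaks at chr5:75584456-75586510 and chr5:75606073-75606603. Whether a domain forms when peaks on H3K4me3 are included was not tested.

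H3K4me3 around Pdgfra was mostly alike in position between the libraries. Of the 9 Olig2cKO peaks, 0 lacked a control partner, against 21.4% of the Olig2cKO list, and of the 9 control peaks 1 lacked an Olig2cKO partner, against 8.13% of the control list. The 1 control-only peak, 75 kb before the start (chr5:75472043-75473535), scored 438.53, and 1.10% of its score decile had no partner. An Olig2cKO peak (chr5:75471112-75472007, score 78.7) ended just before it. That peak overlapped another control peak, chr5:75471063-75471982, by 92.2% of their joint length. With a gap of up to 1 kb allowed, it counted as the partner of both, and 0 control peaks lacked a partner. The Olig2cKO peak 69 kb before the start (chr5:75478602-75479758, score 233.62) touched its control partner by 11 bp, and with an overlap of 50% of the shorter peak required, it had none. In both cases H3K4me3 of the other genotype was listed within 1 kb, but in a peak that mainly overlapped a different peak.

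Of the 7 H3K4me3 pairs with 1 partner each way, 5 were wider in Olig2cKO tumours, against 76.7% of all such pairs, and their overlaps ran from 79.0% to 96.0% of the joint length with a median of 90.9%. By bases, the control H3K4me3 peaks were split almost evenly between the part before the gene and the rest. By number, most H3K4me3 peaks lay before the gene, 6 of 9 in each genotype. Of these, 5 lay between 85 and 68 kb before the start, on the side of Gsx2. Their scores ran from 78.7 to 512.66 in Olig2cKO and from 114.26 to 438.53 in control tumours. H3K27ac was missing at 7 of 9 H3K4me3 peaks in each genotype, against 33.3% in Olig2cKO and 33.4% in control tumours. Counted by peaks, H3K4me3 without listed acetylation was the common state of this mark around Pdgfra in both libraries. The exceptions were the site 81 kb before the start in both genotypes, the end of the gene in Olig2cKO tumours and the site 95 kb after the start in control tumours. By bases this does not hold in Olig2cKO tumours, where the excepted H3K4me3 peaks measured 2604 and 5500 bp of 14968 bp covered.

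**Figure D4:**
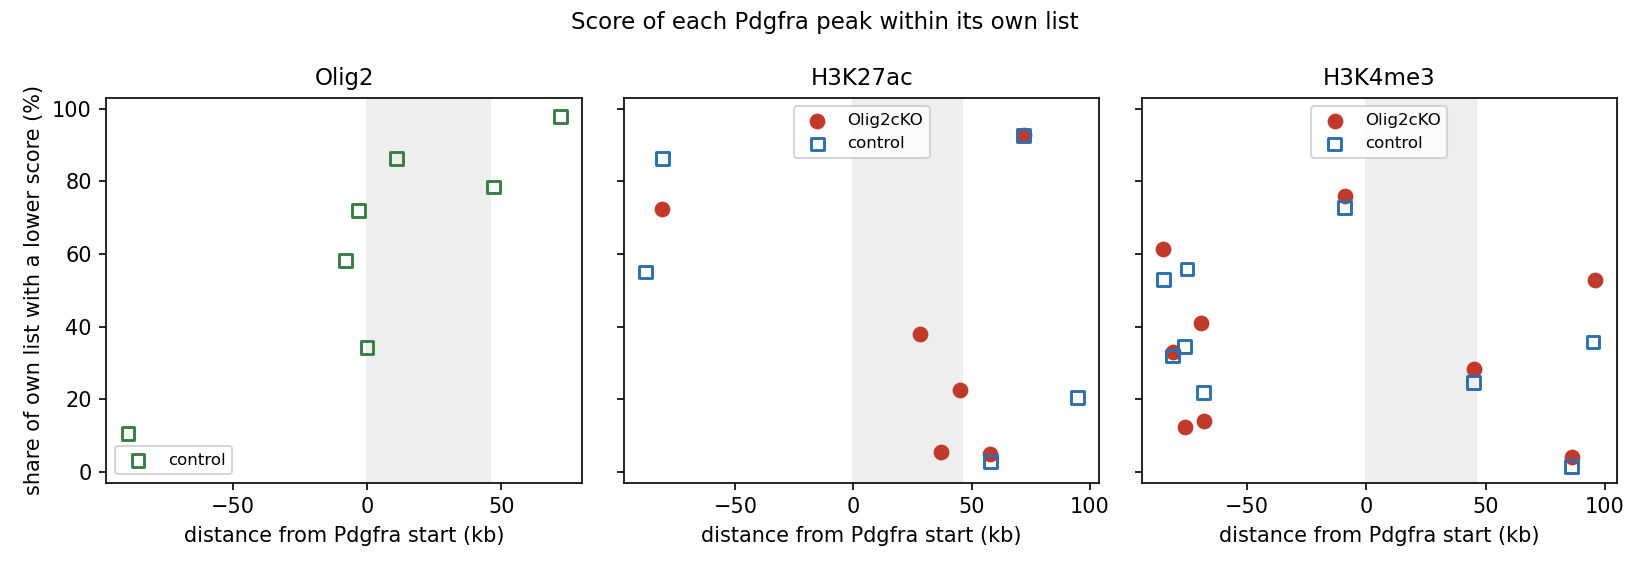
Place of each peak around Pdgfra in its own list, as the percent of that list with a lower score, against the distance of the peak's centre from the approximate start of the gene in kb (grey, the gene body). The Olig2 and H3K27ac peaks 72 kb after the start lie above 92% of their lists, and the Olig2cKO H3K27ac peaks in the gene body lie below the middle of theirs.

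Set among all 10563 pieces of 250 kb, the window held more H3K4me3 and Olig2 peaks than most pieces and was ordinary in H3K27ac peaks. Fewer H3K4me3 peaks were found in 80.4% of the pieces in Olig2cKO and in 83.1% in control tumours. Fewer Olig2 peaks were found in 77.5%. For H3K27ac the shares were 51.0% in Olig2cKO and 53.2% in control tumours. With the upper 50% of each list by score, the H3K4me3 shares fell to 63.0% in Olig2cKO and 67.1% in control tumours. The Olig2 share rose to 87.1%, and the H3K27ac shares were 41.1% in Olig2cKO and 58.4% in control tumours. The median piece held 5 Olig2cKO and 4 control H3K27ac peaks, 4 Olig2cKO and 3 control H3K4me3 peaks, and 3 Olig2 peaks.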

How the data were processed

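The authors called peaks per library and deposited 1 list for each, in which every peak has the score that was calculated by their peak caller; no scaling between libraries is stated. CASAVA, Bowtie2, MACS and mm9 are named per the submitters' processing notes, with no versions or settings; the use of an input library is not stated. Positions were counted from 1. At least 1 bp in common with the other genotype's list made a peak shared. Overlaps were computed in Python 3.11.15 (numpy 2.4.6, pandas 2.3.3, intervals with scipy 1.17.1), checked against bedtools 2.31.1 in 4 comparisons, with 0 peaks differing, and tested on simulated data. Figures were drawn with matplotlib 3.10.9. All peaks of the window were described by a fixed rule: full values for Olig2 peaks, for peaks at the gene start and for those without a partner, and ranges and counts for the rest. The members, lists and comparisons were chosen with earlier results of these data known. Whole lists gave the background. The gene's ends come from the rule that set the window. Alternatives covered score, list length, overlap, merging, window size and tiling. Marker and pathway genes planned for comparison were not located, since their mm9 positions were not used here. A part of the genotype that both groups share is not reported here.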

Additional observations from a re-analysis of the deposited data

How the results depend on the processing

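Depth per library is unknown, each group had 1 library, and the counts are small, so a single peak can move a result by over 1.5 times; the cause of the moves was not tested, beyond what the construction of a setting explains. Of 151 comparisons of a result with an alternative setting, 72 stayed close to the value in the text and 79 moved. The number of Olig2 peaks without a histone peak was 3 or 4 under every setting run for it, but they were not always the same peaks, nor out of as many. No paired analysis was possible because each group had 1 library.

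With the upper 50% of each list by score, the window held 2 Olig2cKO and 3 control H3K27ac peaks and 3 H3K4me3 peaks in each genotype. They covered 3641 bp (Olig2cKO H3K27ac) and 6670 bp (control H3K27ac), which turns round the direction of the H3K27ac cover, and 3587 bp (Olig2cKO H3K4me3) and 3921 bp (control H3K4me3). Without a partner were 0 Olig2cKO and 1 control H3K27ac peaks and 1 H3K4me3 peak in each genotype. No histone peak lay on 3 of 5 Olig2 peaks, with the peak at the end of the gene in place of the one at its start. Olig2 lay on 1 peak of each histone list, each histone list lay on 1 Olig2 peak, and 2 Olig2cKO H3K27ac peaks were distal. The shares of tiles with fewer peaks were 87.1% (Olig2), 41.1% and 58.4% (H3K27ac, Olig2cKO and control) and 63.0% and 67.1% (H3K4me3, Olig2cKO and control).

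With the gene body plus 10 kb on either side, H3K27ac had 3 peaks in Olig2cKO and 0 in control tumours, which cover 0 bp, and H3K4me3 had 2 in each, over 6745 and 8192 bp (Olig2cKO and control). Control-only peaks numbered 0 for both marks, Olig2 lay on 1 Olig2cKO and 0 control H3K27ac peaks, these lists lay on 1 and 0 Olig2 peaks, and 2 Olig2cKO and 0 control H3K27ac peaks were distal.

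A window of 500 kb held 15 Olig2, 18 Olig2cKO and 16 control H3K27ac, and 19 Olig2cKO and 19 control H3K4me3 peaks, over 17555, 36876, 29983, 29188 and 30824 bp in this order. Without a partner were 6 Olig2cKO and 4 control H3K27ac peaks and 2 Olig2cKO and 3 control H3K4me3 peaks. Olig2 lay on 7 Olig2cKO and 9 control H3K27ac peaks and on 5 Olig2cKO and 6 control H3K4me3 peaks, the same numbers of Olig2 peaks lay on those lists, 4 of the 15 Olig2 peaks had no histone peak, a lower share than 3 of 7, and 10 Olig2cKO and 7 control H3K27ac peaks were distal.

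For H3K4me3, control peaks without a partner numbered 2 with lists of equal length, and 0 with a gap of up to 1 kb allowed or closed by merging, and 1 Olig2cKO peak lacked one when 50% overlap was required. With lists of equal length, 46.1% (H3K27ac) and 78.7% (H3K4me3) of tiles held fewer Olig2cKO peaks. On chromosomes 1 to 19 the tile shares were 76.1% (Olig2), 48.7% and 51.1% (H3K27ac, Olig2cKO and control) and 79.3% and 82.2% (H3K4me3, Olig2cKO and control). The median place of the window's peaks in their list was 72.0% by score and 79.6% by width for Olig2, 30.2% and 73.0% for Olig2cKO H3K27ac, 55.1% and 27.2% for control H3K27ac, 32.9% and 46.9% for Olig2cKO H3K4me3, and 34.5% and 55.5% for control H3K4me3.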
